A study of Homo sapiens with 8 samples.

Results

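The data are 4 Affymetrix expression arrays of CCRF-CEM, an established line of human acute lymphoblastic leukaemia of the T lineage (T-ALL), taken from a series of 8 arrays that also holds 4 of HPB-ALL, another T-ALL line. The arrays were chosen by their titles: 1 of cells with a scramble short hairpin RNA (shRNA), 1 each of cells with the hairpins shTOX-1 and shTOX-2 against TOX, and 1 of untransduced cells. The scramble and shTOX cells had been spinoculated with virus, selected with puromycin and kept for at least 2 weeks, so that scramble shares the transduction and selection with the hairpins and the untransduced cells share neither. All cells grew in RPMI medium with 10% fetal bovine serum, and total RNA was labelled by the GeneChip WT Plus protocol. HPB-ALL was given the same 4 states, with 1 array per line and construct, and served here as a comparison and as part of the estimate of spread.

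The only replicates of lowered TOX within CCRF-CEM are the pair of hairpins, which also differ in how far TOX was lowered. The labels do not say whether each array had a culture of its own, so a p-value here speaks of the spread among these arrays alone, and that spread may be partly technical. For shTOX against both controls together, the spread also holds the distance between scramble and untransduced and that between the hairpins. In that comparison a gene already shifted with scramble tends to have a wider standard error, so a failure to pass is not a measure of replicate noise alone. The sources used here give no hairpin sequence. The values below are log2 array levels, given for all 4 arrays, so that a difference already present between untransduced and scramble cells can be read apart from one that goes with the hairpins. A level is comparable between arrays for 1 gene, not between genes.

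TOX is a nuclear protein with an HMG-box, a DNA-binding fold that recognizes the shape of DNA more than a fixed sequence. In the thymus it is needed for the development of CD4 T cells and other lymphoid cells. Many T-ALL cells keep it at a high level, and it has been studied there in connection with the repair of DNA breaks by the KU proteins. A knockdown by shRNA lowers the transcript by RNA interference and leaves part of it in place.

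TOX itself read 11.03 in untransduced cells, 11.03 with scramble, 10.65 with shTOX-1 and 9.86 with shTOX-2. Both hairpin arrays lay below both controls, and scramble did not differ from untransduced in the second decimal. As a share of the scramble value, shTOX-1 left 77.0% of TOX and shTOX-2 left 44.6%. The mean difference between shTOX and control arrays was -0.77 ± 0.41 (standard error), which did not pass in limma with Benjamini-Hochberg adjustment over 8930 genes (adjusted p = 0.582, rank 1478 by p). An exact two-sided permutation test over the 4 arrays gave p = 0.333, the smallest value that its 6 assignments allow. Among relatives, TOX2 read 5.54 in untransduced cells, 5.59 with scramble, 5.69 with shTOX-1 and 5.84 with shTOX-2. TOX4 was higher in the untransduced array alone, at 9.51, against 9.07 with scramble, 9.15 with shTOX-1 and 9.16 with shTOX-2. TOX3 stayed below the filter level on all 4 arrays, at 4.95 to 5.10.

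The arrays carried the transcripts of a T cell line. LCK, the kinase that starts T cell receptor signalling, lay between 9.74 and 9.98, CD5 between 9.45 and 9.93, and CD7 between 9.46 and 10.26. CD2 was dim, at 5.44 to 5.97, and CD3D and CD3E carry no value in the annotation used here. Markers of other blood cells were mixed: CD14 read 3.60 to 3.77, LYZ 3.58 to 3.83 and GNLY 3.76 to 4.01, whereas the myeloid marker CD68 read 6.41 to 6.87, the NK cell markers NKG7 and NCR3 8.19 to 8.99 and 5.82 to 6.81, and the B cell marker VPREB1 6.10 to 7.61. Levels averaged over a list were 8.25 to 9.12 for the 7 measured T cell markers, and 4.57 to 5.97 for the lists of B cell, myeloid, NK cell, erythroid and stromal markers.

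Of 14884 genes with a value, the 8930 whose mean over the series reached log2 5.18 were tested. Across them, scramble correlated with shTOX-1 at r = 0.979 and with shTOX-2 at 0.983, while it correlated with untransduced at 0.965. The hairpin arrays correlated with each other at 0.985, and with untransduced at 0.949 and 0.956. The untransduced array was therefore the one that stood apart.

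In limma, 0 of 8930 genes (0%) passed an adjusted p under 0.05 for shTOX against the 2 controls, although 821 had an unadjusted p under 0.05. The smallest adjusted p was 0.125. Against scramble alone, again 0 genes (0%) passed, with 585 at an unadjusted p under 0.05 and a smallest adjusted p of 0.138. Without the scramble array, 65 genes passed for shTOX against the remaining control, 13 higher and 52 lower, and without either HPB-ALL shTOX array 32 passed against scramble. For scramble against untransduced, 44 genes passed: 11 were higher with scramble (0.123%) and 33 were lower (0.37%). Here 1 array was set against 1, with the spread taken from the hairpin pairs of both lines, so the lone arrays are assumed to vary like those pairs. That count was 27 without either CCRF-CEM shTOX array and 156 without either HPB-ALL shTOX array.

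Single arrays gave the same order of distances. At least 0.5 (log2) beyond all 3 other CCRF-CEM arrays, untransduced stood alone on the high side for 448 genes (5.02%) and on the low side for 465 (5.21%). Scramble stood alone above the rest for 41 genes (0.459%) and below for 58 (0.649%). For shTOX-1 the counts were 70 above (0.784%) and 123 below (1.38%), and for shTOX-2 they were 28 above (0.314%) and 81 below (0.907%). Untransduced cells differed from the others in culture history, virus and selection together, and these cannot be told apart with 1 array.

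Both hairpin arrays lay above both controls for 1987 genes (22.3%) and below both for 1854 (20.8%). A gap of at least 0.5 between the nearest shTOX and control arrays was reached by far fewer: 58 genes on the high side (0.649%) and 104 on the low side (1.16%). Quantile normalization of the arrays turned this split to 99 higher and 66 lower. The counts rest on all 4 arrays: they were 131 higher and 263 lower without shTOX-1, 225 and 372 without shTOX-2, 638 and 762 without scramble, and 137 and 179 without untransduced. Opposed to these stand the genes whose shift was shared with scramble, defined as all 3 transduced arrays at least 0.5 from untransduced on the same side and the shTOX mean within 0.25 of scramble. There were 383 of them on the high side (4.29%) and 264 on the low side (2.96%).

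**Figure D1:**
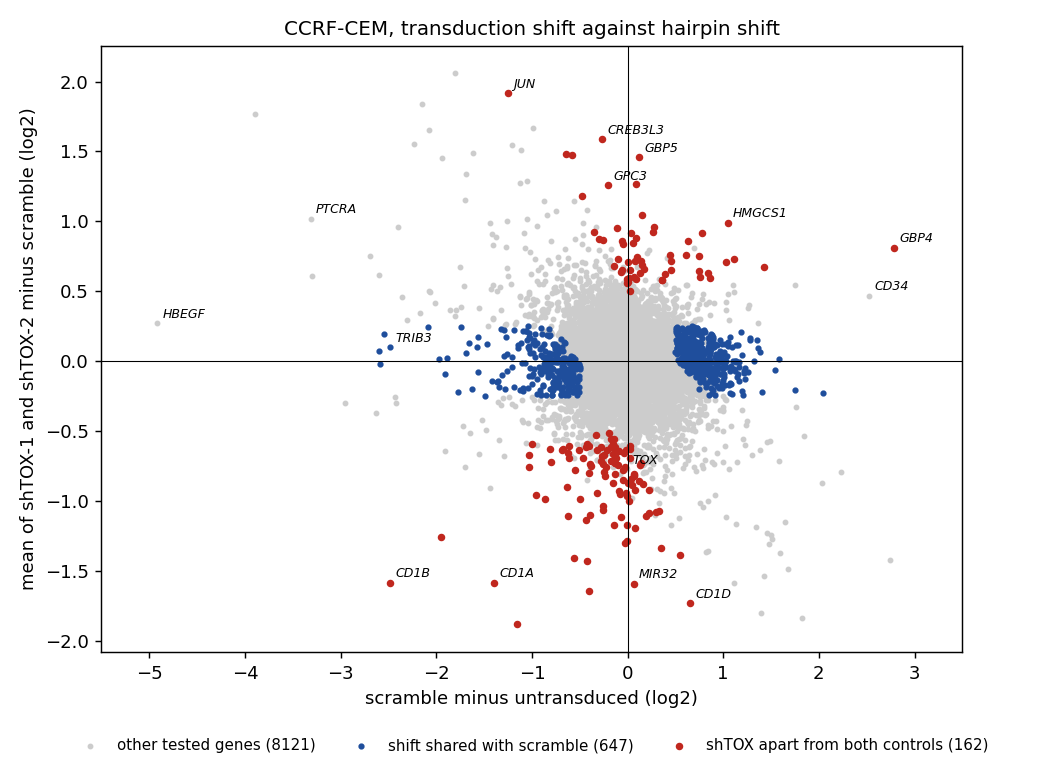
Each point is 1 of the 8930 tested genes, with the log2 difference of scramble minus untransduced on the horizontal axis and the mean of both shTOX arrays minus scramble on the vertical axis. The scramble array enters both axes with opposite signs, so a falling trend is built in and is no result; the 162 genes with a gap of 0.5 between shTOX and both controls are red, and the 647 whose shift was shared with scramble are blue.

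Among the 58 genes on the high side, scramble lay within 0.25 of untransduced in 29, had already moved by 0.25 or more in the direction of the hairpins in 21, and had moved the other way in 8. The split among the 104 on the low side was 57, 42 and 5. Scramble near untransduced was the commonest case on both sides, and a shift that began with scramble and went further with the hairpins came next. The same split was not taken over all tested genes, so these counts only describe the genes chosen by their gap.

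The genes with the widest gap on the high side included several whose controls read alike. GBP5, an interferon-inducible GTPase, read 5.20 in untransduced cells, 5.32 with scramble, 7.18 with shTOX-1 and 6.38 with shTOX-2. GPC3, a heparan sulphate proteoglycan of the cell surface, read 8.29, 8.09, 9.32 and 9.37 in the same order. CREB3L3, a transcription factor that is cut free from the endoplasmic reticulum membrane, stood at 7.62, 7.36, 9.21 and 8.68. These 3 genes were chosen by their gap, so the lack of overlap between the groups is no result. In each, the control arrays lay closer to each other than to either hairpin. Fitted differences from the controls were 1.52 ± 0.26 for GBP5 (2.86-fold higher), 1.16 ± 0.17 for GPC3 (2.23-fold) and 1.46 ± 0.41 for CREB3L3 (2.74-fold). Their adjusted p in limma were 0.399, 0.276 and 0.449.

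The other widest gaps fell on growth factors, receptors and regulators. GDF10, a ligand of the TGF-beta family, read 7.72 in untransduced cells, 7.80 with scramble, 9.58 with shTOX-1 and 8.56 with shTOX-2. ANGPT1, the secreted ligand of the receptor TEK, read 6.96, 7.23, 8.14 and 8.16. TCF4, a basic helix-loop-helix E protein, read 8.15, 8.18, 8.85 and 9.34. Each of these had both controls together and both hairpins higher. IL21R, a cytokine receptor chain, was at 5.96, 5.92, 6.71 and 6.80. HOXB2, a homeobox factor, was at 5.04, 4.93, 5.73 and 6.04, and the noncoding LINC00226 at 6.08, 6.36, 7.06 and 7.57. For IL21R, HOXB2 and LINC00226, as for GBP5, the controls were close to the filter level of 5.18 or not far above it. There the array's background compresses differences.

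**Figure D2:**
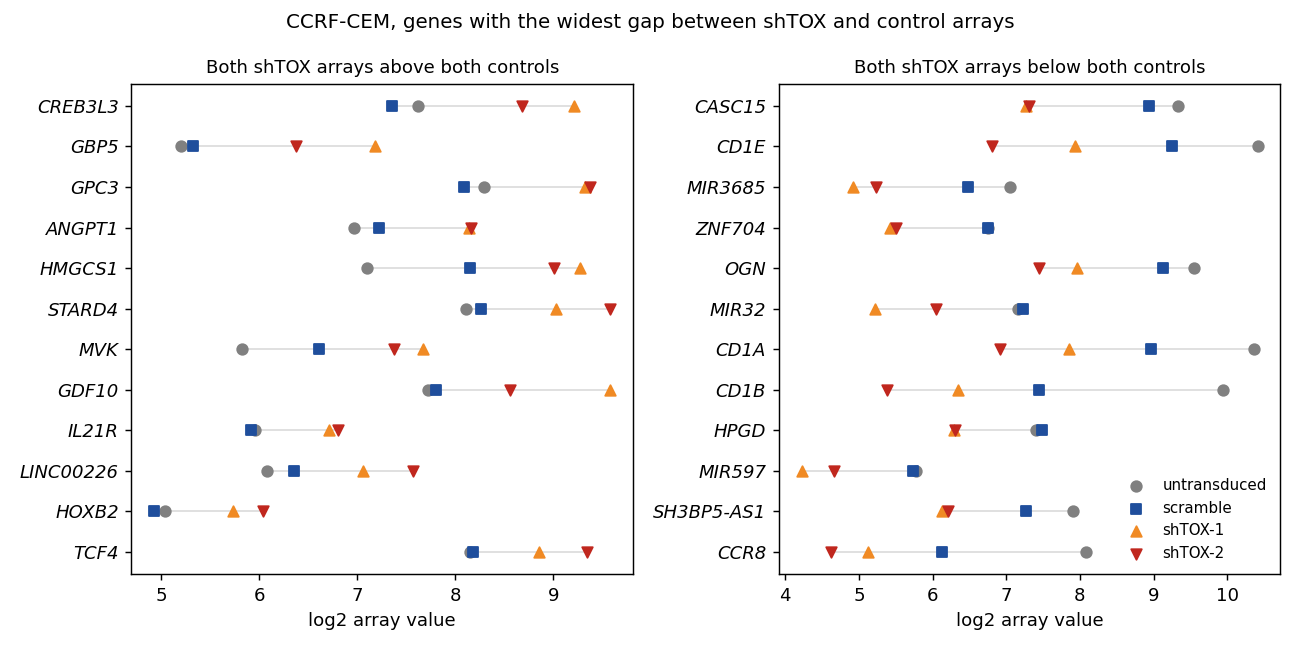
Log2 array values (horizontal axis) of the 12 genes with the widest gap on each side, 1 row per gene; grey circles are untransduced, blue squares scramble, orange triangles shTOX-1 and red triangles shTOX-2. In every row the hairpin symbols lie on 1 side of both controls, which the choice of genes fixed. In several rows, CD1A, CD1B, CD1E, CCR8, HMGCS1 and MVK among them, the scramble square sits between untransduced and the hairpins.

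Of the 32 gene lists described, cholesterol synthesis had the most members apart on the high side. The pathway turns acetyl-CoA into mevalonate and then, through squalene, into sterols, and it is switched on by the transcription factor SREBF2 when sterols run low. Of 20 tested members of the list, both shTOX arrays lay above both controls in 15 and below both in 3, against 22.3% and 20.8% of all genes. A gap of 0.5 was reached by 7 of the 20 on the high side and by 1 on the low side, against 0.649% and 1.16% of all genes. No member passed in limma for shTOX against the controls.

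By position in the pathway, the entry enzyme HMGCS1 (HMG-CoA synthase) read 7.10 in untransduced cells, 8.15 with scramble, 9.28 with shTOX-1 and 9.005 with shTOX-2. MVK, mevalonate kinase, read 5.82, 6.61, 7.67 and 7.37, and MVD, the decarboxylase that follows, read 6.56, 7.31, 8.22 and 7.91. These lay in steps: untransduced lowest, scramble between, both hairpins highest. SQLE, which oxidizes squalene, read 7.72, 8.83, 9.68 and 9.42. In the late steps MSMO1 read 9.50, 10.12, 10.99 and 10.75, and DHCR7, the last reductase, 8.07, 8.52, 9.40 and 9.17. STARD4, a protein that carries sterols between membranes, differed from them in that scramble stayed near untransduced: it read 8.11, 8.26, 9.03 and 9.58.

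Relative to scramble, the median over the 20 members was -0.46 for untransduced, 0.47 for shTOX-1 and 0.23 for shTOX-2. Over all tested genes the same medians were -0.02, 0.04 and -0.03. The hairpin with less effect on TOX thus had the higher median here. SREBF2 itself was at 8.27, 8.67, 9.19 and 9.02, and SREBF1 was higher in scramble, at 7.54, than in untransduced (7.00) or either hairpin array (6.97 and 6.99). MYLIP, a ubiquitin ligase that lowers the LDL receptor, went the other way: 7.38 untransduced, 6.36 with scramble, 5.81 with shTOX-1 and 5.57 with shTOX-2. The fitted difference from the controls was 1.51 ± 0.62 for HMGCS1, 1.31 ± 0.40 for MVK and 1.12 ± 0.41 for STARD4, with adjusted p of 0.53, 0.453 and 0.523 in limma.

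The promoters of the pathway often carry the CCAAT box, bound by NF-Y, a factor known to work with the sterol-responsive SREBF proteins. It was searched as the letters CCAAT on both strands, in 300-base windows around the gene start, taken from RefSeq on GRCh38.p14. It was found in 16 of the 23 list promoters available and in 35.7% of all 27305. The 16 include members that read higher with both hairpins, but also MYLIP and HSD17B7, which read lower. They also include INSIG1 and TM7SF2, in which the hairpins overlapped the controls. The windows of HMGCS1 (chr5:43313363-43313662, minus strand, 2 matches) and MVK (chr12:109573544-109573843, plus strand, 5 matches) are shown because these genes moved through the 4 arrays in the same steps; capitals mark the box, which reads ATTGG on the opposite strand. A match describes these letters and shows no binding.
HMGCS1: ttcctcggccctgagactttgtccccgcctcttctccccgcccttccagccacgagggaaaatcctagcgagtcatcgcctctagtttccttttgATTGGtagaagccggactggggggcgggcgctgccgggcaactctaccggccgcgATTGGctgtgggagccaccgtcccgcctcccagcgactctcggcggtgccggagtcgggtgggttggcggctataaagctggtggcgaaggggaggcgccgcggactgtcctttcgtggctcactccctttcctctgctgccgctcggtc
MVK: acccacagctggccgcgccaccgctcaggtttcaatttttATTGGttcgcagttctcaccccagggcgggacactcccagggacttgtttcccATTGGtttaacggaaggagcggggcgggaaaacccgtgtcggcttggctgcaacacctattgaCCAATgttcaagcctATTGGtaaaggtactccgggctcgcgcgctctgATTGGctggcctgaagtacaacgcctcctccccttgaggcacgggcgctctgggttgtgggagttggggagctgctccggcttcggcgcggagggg

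CD1A, CD1B and CD1E were among the genes with the widest gaps on the low side. CD1 proteins resemble major histocompatibility molecules and present lipids to T cells; in the thymus CD1A, CD1B, CD1C and CD1E mark immature cortical cells. CD1A read 10.37 in untransduced cells, 8.97 with scramble, 7.86 with shTOX-1 and 6.91 with shTOX-2. CD1B read 9.94, 7.45, 6.34 and 5.39 in that order. CD1E read 10.41, 9.25, 7.93 and 6.81. In all 3 the arrays descended in 1 order, with scramble already 1.16 to 2.49 below untransduced and each hairpin lower again. CD1C followed at 10.17, 8.74, 8.28 and 7.39, with shTOX-1 at -0.46 from scramble.

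CD1D, the member that presents lipids to natural killer T cells, broke this order. It was higher with scramble, at 8.49, than in untransduced cells, at 7.84, and lower with both hairpins, at 7.04 and 6.48. All 5 CD1 genes thus had both hairpins below both controls, where 20.8% of all genes did, and 4 of the 5 had a gap of at least 0.5, where 1.16% did. Their median relative to scramble was -1.11 with shTOX-1, -2.06 with shTOX-2 and 1.40 in untransduced cells. The fitted differences from the controls were -2.83 ± 0.68 for CD1B (7.10-fold lower), -2.46 ± 0.43 for CD1E (5.51-fold), -2.28 ± 0.47 for CD1A (4.87-fold), -1.62 ± 0.45 for CD1C and -1.40 ± 0.27 for CD1D. None passed in limma; the adjusted p were 0.399 for CD1A, CD1B, CD1D and CD1E and 0.438 for CD1C. Without the scramble array, the differences were -2.98 for CD1A, -3.04 for CD1E and -4.07 for CD1B. These are set against untransduced alone and include the shift already present with scramble, so they do not isolate the hairpins. Against scramble alone the differences were smaller for members that already read lower with scramble, at -1.58 ± 0.37 for CD1B and -1.59 ± 0.42 for CD1A, and larger for CD1D, at -1.73 ± 0.26.

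Among markers of B cells, all 3 that were tested lay above both controls with the hairpins, where 22.3% of all genes did, and none passed in limma. The other 3 measured, BLK, CD22 and EBF1, were below the filter level on all 4 arrays. IGLL1, part of the surrogate light chain of precursor B cells, read 5.06, 5.76, 7.15 and 5.98, and VPREB1, its partner, 6.10, 6.85, 7.61 and 7.37. The defining factor PAX5 stayed at 5.23 to 5.72, with shTOX-2 only 0.038 above scramble. Among other lists, 2 of 3 tested myeloid markers, 0 of 3 NK cell markers and 3 of 4 erythroid and megakaryocyte markers lay above both controls. The mean over the 6 measured B cell markers was 4.88 untransduced, 5.18 with scramble, 5.62 with shTOX-1 and 5.32 with shTOX-2, and its part in the CD1 result was not tested. In these bulk arrays, fewer cells with a transcript and less transcript per cell cannot be told apart.

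The promoter of CD1E (chr1:158353644-158353943, plus strand, RefSeq on GRCh38.p14) is shown as the 1 window of the 4 CD1 genes available that held the letters CTTTGNT, a loosened form of the sequence that the HMG-box factors TCF7 and LEF1 bind. N stands for any base, so a match need not fit the bound sequence and shows no binding. The search covered both strands, capitals mark the 2 matches, and 15.6% of all 27305 windows hold the letters. LEF1 itself was at 10.95 untransduced, 10.78 with scramble, 10.51 with shTOX-1 and 10.35 with shTOX-2, with both hairpins below both controls.
CD1E: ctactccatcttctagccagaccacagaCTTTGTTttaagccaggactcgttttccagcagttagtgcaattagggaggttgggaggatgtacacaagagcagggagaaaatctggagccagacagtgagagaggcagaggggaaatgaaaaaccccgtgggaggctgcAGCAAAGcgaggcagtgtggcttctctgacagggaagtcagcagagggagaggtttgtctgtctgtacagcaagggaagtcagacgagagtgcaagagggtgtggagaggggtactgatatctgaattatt

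Among the other protein-coding genes on the low side, a few had controls that coincided and hairpins that coincided. ZNF704, a zinc finger protein, read 6.76 untransduced, 6.75 with scramble, 5.42 with shTOX-1 and 5.51 with shTOX-2. HPGD, the dehydrogenase that inactivates prostaglandins, read 7.40, 7.49, 6.29 and 6.30. These 2 genes had the smallest adjusted p of the comparison, 0.125 each in limma, with differences of -1.29 ± 0.15 (2.44-fold lower) and -1.15 ± 0.14 (2.22-fold lower). Against untransduced alone, without the scramble array, the differences were -1.29 for ZNF704 and -1.11 for HPGD. IKZF2, the Ikaros family factor Helios, had the same shape at 8.69, 8.72, 7.86 and 7.88. LZTFL1, a protein of cilia transport, read 10.69, 10.54, 9.42 and 9.91, with the hairpins farther from each other than the controls were.

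CCR8, a chemokine receptor, instead lay in steps, at 8.08 untransduced, 6.13 with scramble, 5.12 with shTOX-1 and 4.63 with shTOX-2. Both hairpin values lay below the filter level, so the size of the last step is limited by background. OGN, a small proteoglycan of the matrix, read 9.55, 9.13, 7.97 and 7.44. XCL1, a chemokine of lymphocytes, read 5.98 and 6.17 in the controls and 5.13 and 5.01 with the hairpins, which again lay below the filter level.

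Several of the widest gaps on the low side lay in noncoding genes. CASC15, a long noncoding RNA, read 9.34 untransduced, 8.94 with scramble, 7.27 with shTOX-1 and 7.32 with shTOX-2, a difference of -1.85 ± 0.59 (3.59-fold lower). SH3BP5-AS1, an antisense transcript, read 7.90, 7.28, 6.12 and 6.21. The probe set of MIR32 read 7.16, 7.23, 5.22 and 6.05, and that of MIR3685 read 7.05, 6.48, 4.93 and 5.23. MIR597 was at 5.77, 5.74, 4.22 and 4.66. The hairpin values of MIR3685 and MIR597 reached down to or below the filter level. Such a probe set measures RNA from the precursor's locus and not a mature arm.

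MIR32 lies within the gene TMEM245, which read 9.50, 9.71, 9.21 and 9.64, so that scramble and shTOX-2 were alike there while the MIR32 probe set read lower with shTOX-2 (-1.18 from scramble). The mature sequences, from RefSeq on GRCh38.p14, are printed to show which seeds the loci encode; capitals mark bases 2 to 8, and the 3 seeds differ.
hsa-miR-32-5p: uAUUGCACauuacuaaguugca
hsa-miR-32-3p: cAAUUUAGugugugugauauuu
hsa-miR-3685: uUUCCUACccuaccugaagacu

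By class of gene, a gap of 0.5 on the low side was reached by 62 of 7994 protein-coding genes (0.776%), 20 of 445 long noncoding genes (4.49%), 13 of 279 miRNA genes (4.66%) and 9 of 212 others (4.25%). On the high side the same shares were 0.65%, 0.674%, 0.717% and 0.472%. The array-wide level differed alongside: the 75th percentile over all probe sets was 6.85 for both controls, 6.69 for shTOX-1 and 6.74 for shTOX-2. Its part in the noncoding results was not tested. Over the tested genes with names, the 75th percentile was 8.86 untransduced, 8.92 with scramble, 8.92 with shTOX-1 and 8.84 with shTOX-2.

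More genes met the definition of a shift shared by scramble and the hairpins than that of a gap between the hairpins and both controls. All 3 transduced arrays are set against the same single untransduced array, so an extreme value on that array alone would also give a shared shift. Among genes that passed for scramble against untransduced, the largest fall was in HBEGF, a growth factor of the EGF family, which read 10.46 in untransduced cells and 5.54 with scramble, 5.87 with shTOX-1 and 5.75 with shTOX-2. The change from untransduced to scramble was -4.92 ± 0.20 (adjusted p = 0.000355, limma). CD34, a surface protein of progenitor cells, rose: it read 5.52 untransduced, 8.05 with scramble and 8.48 and 8.55 with the hairpins (2.53 ± 0.22, adjusted p = 0.00891). GBP4, a relative of GBP5, rose from 4.48 to 7.26 with scramble and read 8.27 and 7.88 with the hairpins (2.78 ± 0.26, adjusted p = 0.00994). Unlike GBP5, most of its distance was already present with scramble.

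Several genes of the integrated stress response read lower in all 3 transduced arrays than in untransduced cells. This response, run by the transcription factor ATF4, answers a shortage of amino acids or protein folding stress. TRIB3, a pseudokinase induced by it, read 10.96 untransduced, 8.48 with scramble, 8.57 with shTOX-1 and 8.59 with shTOX-2. ATF5, a factor translated under stress, read 10.72, 8.12, 7.99 and 8.39, and DDIT3, which promotes cell death after prolonged stress, 7.92, 5.61, 5.90 and 5.91. In each the 3 transduced arrays lay together and apart from untransduced. Of the 15 tested members, 7 met the definition of a shared shift on the low side (2.96% of all genes did) and 4 fell in limma (0.37% of all genes did): TRIB3, ATF5, DDIT3 and SESN2, with adjusted p of 0.0129, 0.017, 0.00891 and 0.017. Untransduced cells stood 1.03 above scramble in the median, and the hairpins 0.06 and 0.11 above it. ATF4 itself stayed between 10.85 and 10.95. Other members differed: PHGDH, a serine synthesis enzyme, read 9.58 untransduced and 9.69 to 9.92 in the transduced arrays, and ATF3 with shTOX-1, at 6.90, exceeded its untransduced value of 6.72. In the unfolded protein response, ERN1, its sensor kinase, fell from 9.84 to 6.54 with scramble and read 7.13 and 7.16 with the hairpins. The heat shock genes HSPA1A and HSPA1B fell too, from 11.47 to 9.41 and from 11.75 to 9.74, with hairpin values of 9.89 and 9.92 for the former; they are near-identical copies whose signals the array may not separate.

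Many genes of cell division read higher in the transduced arrays than in untransduced cells, though none passed in limma for scramble against untransduced. Among 30 tested genes of G2 and mitosis, 22 met the definition of a shared shift on the high side, and among 21 of S phase, 11 did, where 4.29% of all genes did. HMMR, a spindle protein, read 8.17 untransduced, 9.49 with scramble, 9.45 with shTOX-1 and 9.54 with shTOX-2. KIF20A, a kinesin of cytokinesis, read 8.47, 9.66, 9.79 and 9.94, and CLSPN, a replication checkpoint protein, 7.23, 8.35, 8.30 and 8.40. The medians of untransduced relative to scramble were -0.79 for G2 and mitosis and -0.66 for S phase. For the hairpins they lay between -0.07 and 0.06. No member of either list had a gap of 0.5 between the hairpins and both controls. GINS1, a replication factor, was an exception at 10.31 untransduced, 10.87 with scramble, 9.89 with shTOX-1 and 10.90 with shTOX-2, and with shTOX-1 MCM6 and MCM7 also read just below untransduced. Of 13 tested MYC targets in ribosome production, 5 met the definition on the high side, and 1 of them, MRTO4, rose in limma.

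**Figure D3:**
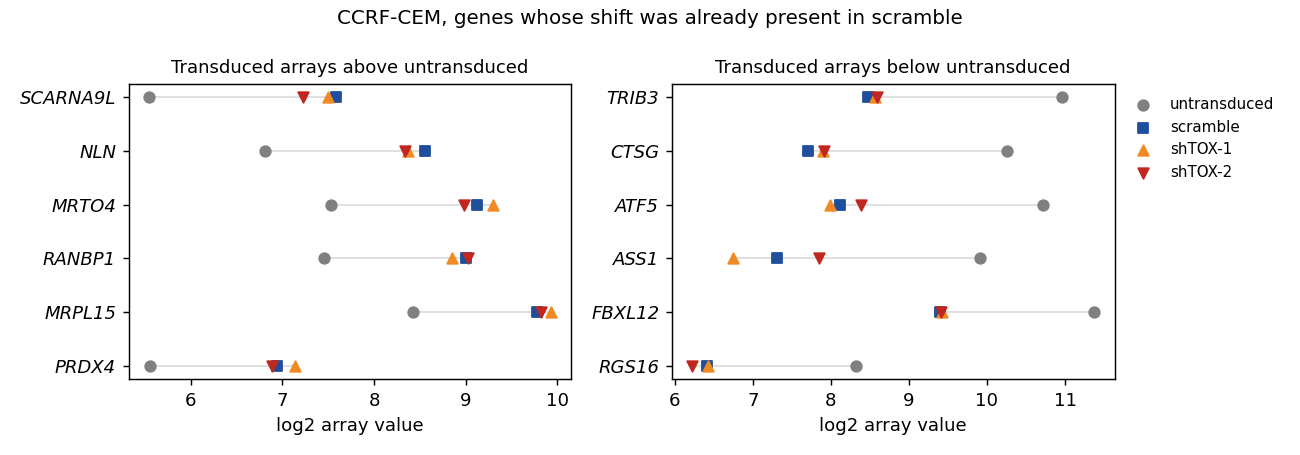
Log2 array values (horizontal axis) of the 6 genes on each side with the clearest shift shared by scramble and both hairpins, 1 row per gene, with the symbols for the 4 arrays given in the key. In each row the grey circle of the untransduced array lies apart from the 3 transduced arrays; for ASS1 those 3 are spread from 6.75 to 7.85.

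By the definition's own measure, the smallest distance of the transduced arrays from untransduced, the leading genes on the high side were SCARNA9L, a small Cajal body RNA, NLN, a peptidase, and MRTO4, a ribosome assembly factor. SCARNA9L read 5.54 untransduced, 7.59 with scramble, 7.49 with shTOX-1 and 7.23 with shTOX-2. The next were RANBP1, a cofactor of nuclear transport, MRPL15, a mitochondrial ribosomal protein, and PRDX4, a peroxiredoxin. The first 4 of these 6 genes rose with scramble in limma (adjusted p of 0.0165, 0.017, 0.0471 and 0.044), and MRPL15 and PRDX4 did not pass (0.0632 and 0.0612). On the low side, TRIB3 and ATF5 were followed by CTSG, a granule protease, at 10.26, 7.71, 7.90 and 7.92 (adjusted p = 0.00891). FBXL12, a ubiquitin ligase subunit, read 11.38 untransduced and 9.40 to 9.42 in the transduced arrays (adjusted p = 0.044). RGS16, a brake on G protein signalling, read 8.32 against 6.22 to 6.42 (adjusted p = 0.0323). ASS1, which makes argininosuccinate, did not pass (0.0934). These calls moved with the arrays and settings. Without either CCRF-CEM shTOX array, NLN, MRTO4, RANBP1, FBXL12 and RGS16 missed the threshold, while ASS1 reached it. In other settings RANBP1 missed it as well, and MRPL15 and PRDX4 reached it.

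In a further set of genes scramble was the lowest array. JUN, an AP-1 subunit, read 9.08 untransduced, 7.83 with scramble, 9.74 with shTOX-1 and 9.76 with shTOX-2. Both hairpins lay above both controls, with a gap of 0.66 to untransduced and a fitted difference of 1.92 ± 0.35 from scramble (adjusted p = 0.364 in limma). IL7R, the receptor of interleukin 7, read 8.73, 6.59, 8.10 and 8.76. CD69, an early activation antigen, read 8.47, 7.10, 8.11 and 7.85, and CD4 read 8.97, 7.71, 9.01 and 8.42. For IL7R, CD69 and CD4 a comparison with scramble alone reads as higher with both hairpins, and the one with untransduced does not.

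PTCRA and NOTCH3 were intermediate. PTCRA, the invariant chain of the pre-T cell receptor and a NOTCH target, read 11.15 untransduced, 7.84 with scramble, 9.07 with shTOX-1 and 8.64 with shTOX-2. NOTCH3 read 9.23, 6.63, 7.04 and 7.45. Both fell from untransduced to scramble in limma (adjusted p = 0.00865 and 0.0121), and the hairpins lay between the 2 controls. NOTCH1 stayed within 10.34 to 10.65. Of the 19 tested NOTCH receptors and targets, 3 lay above both controls with the hairpins and 7 below (22.3% and 20.8% of all genes did). Of them 1, LZTFL1, had a gap of 0.5, on the low side, where 1.16% of all genes had one. MYC was lower mainly with shTOX-2, at 8.94, against 9.84 untransduced, 9.82 with scramble and 9.60 with shTOX-1.

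**Figure D4:**
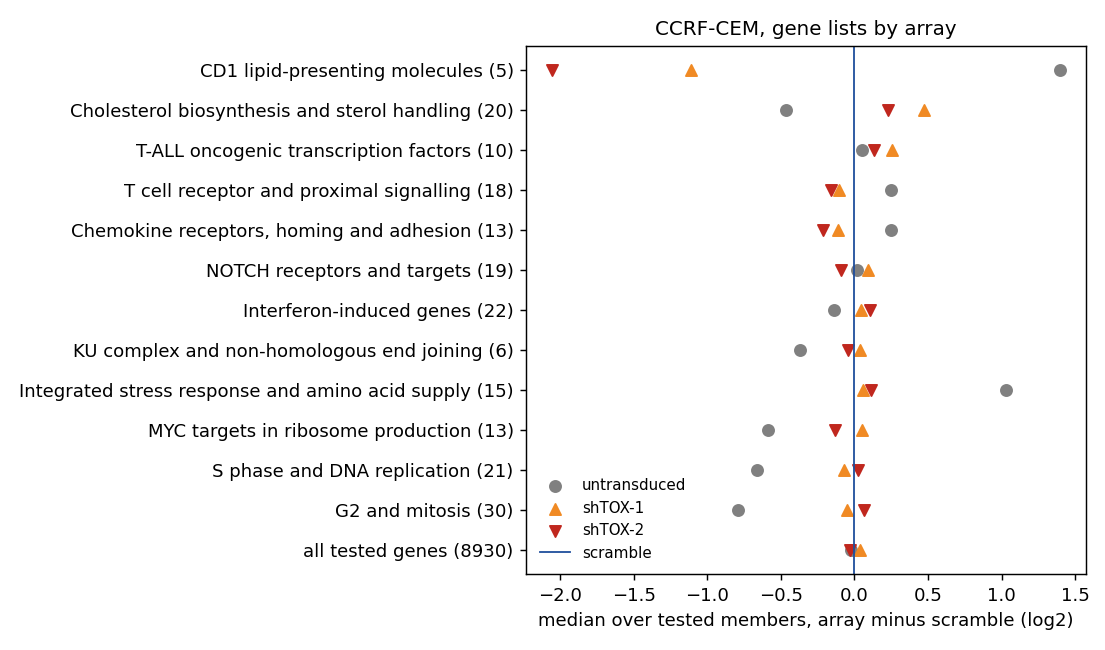
Median log2 difference from scramble (horizontal axis) over the tested members of each gene list, for untransduced (grey circles), shTOX-1 (orange) and shTOX-2 (red), with the number of tested members in brackets; the vertical line at 0 is scramble. CD1 has the hairpins at -1.11 and -2.06 and untransduced at 1.40, whereas the stress response and cell division lists have the hairpins near 0 and untransduced at 1.03, -0.66 and -0.79.

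On the list of receptor chains and proximal signalling of T cells, 18 were tested, of which 8 lay below both controls with the hairpins (20.8% of all genes did) and 2 above (22.3%), with none apart by 0.5. Single arrays differed by more. CD28, the costimulatory receptor, read 8.38 untransduced, 7.70 with scramble, 7.60 with shTOX-1 and 6.70 with shTOX-2. CD7 read 10.26, 9.77, 9.55 and 9.46, and TRAT1, a receptor adaptor, 11.61, 11.30, 10.58 and 11.15. Among 19 T lineage transcription factors, 7 lay below both controls and 2 above, against the same 20.8% and 22.3% of all genes; besides IKZF2, GATA3 read 9.16, 8.94, 8.70 and 8.56. Of 10 tested T-ALL oncogenic factors, 5 lay above and 2 below, against 22.3% and 20.8%. HHEX, a homeobox factor of lymphoid progenitors, read 6.29 untransduced, 7.32 with scramble, 8.13 with shTOX-1 and 7.93 with shTOX-2. It was the only one of the 10 with a gap of 0.5, on the high side, where 0.649% of all genes had one. LYL1, a partner of LMO2, read 6.25, 6.82, 7.38 and 7.04, and LMO2 itself 6.47, 6.20, 6.67 and 6.31, with the groups overlapping.

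The KU complex and the joining of DNA ends gave no gene apart. None of the 6 tested members had both hairpins beyond both controls, where 22.3% of all genes lay above and 20.8% below. XRCC6 and XRCC5, the KU subunits, read 9.76 to 9.89 and 11.75 to 11.78 in the 3 transduced arrays, against 9.24 and 11.31 in untransduced cells. XRCC4, a ligase partner, read 8.36 to 8.78 in the other arrays and was lower with shTOX-2 (-0.64 from scramble). The recombinase genes RAG1 and RAG2 were higher in untransduced cells, at 6.16 and 10.58, than in the transduced arrays, at 5.13 to 5.32 and 9.28 to 9.46. In homologous recombination 2 of 14 lay above both controls and 1 below, and in mismatch and base excision repair 3 of 17 lay on each side, with none apart by 0.5 and shares no higher than the 22.3% above and 20.8% below of all genes. Among the latter, PMS2 read 8.30 and 8.22 in the controls and 7.77 and 7.67 with the hairpins, and NTHL1, 6.86 and 7.19 against 7.71 and 7.60.

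Among 22 tested interferon-induced genes, 5 lay above both controls, 3 below and none were apart by 0.5, which is near or below the shares of all genes (22.3% above and 20.8% below). HERC5 read 7.95 untransduced, 8.78 with scramble, 9.19 with shTOX-1 and 9.18 with shTOX-2. The list's RNA sensor IFIH1 read 5.49, 5.62, 5.93 and 6.05, and ISG15 stayed between 6.83 and 7.18. GBP4 and GBP5 were not on the list. Of 14 BCL2 family genes, 3 lay above and 2 below, again no more than those shares: PMAIP1, a death promoter, read 9.15, 9.11, 9.76 and 9.40, and BCL2L11 6.73, 6.40, 6.23 and 5.99. Of 10 tested genes of glycolysis and hypoxia, 2 lay below both controls, close to the 20.8% of all genes: HK2, a hexokinase, at 7.88, 7.98, 7.44 and 7.25, and VEGFA, which fell with scramble from 7.65 to 5.22 and read 4.91 and 5.02 with the hairpins. Of 13 tested chemokine receptors and adhesion genes, 6 lay below both controls (20.8% of all genes did) and none above (22.3%). Besides CCR8, CCR9 read 9.06 untransduced, 6.64 with scramble, 6.52 with shTOX-1 and 6.17 with shTOX-2, and SELPLG, the ligand of P-selectin, 9.20, 8.96, 8.63 and 8.36.

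TOX was lower with shTOX-2 than with shTOX-1, and genes in that order of the hairpins were counted. The opposite order, with shTOX-1 farther out, was not counted by the same steps, so the step counts have no counterpart. Genes with shTOX-1 at least 0.25 beyond both controls and shTOX-2 at least 0.25 beyond shTOX-1 numbered 28 on the high side (0.314%) and 45 on the low side (0.504%). Quantile normalization made these 45 and 29. Of the 58 genes with a gap of 0.5 on the high side, shTOX-2 was farther out than shTOX-1 in 27, and of the 104 on the low side in 42. CD1A, CD1B and CD1E were in the order of the hairpins, as was SMAD6, an inhibitor of BMP signalling, at 7.94 untransduced, 7.80 with scramble, 6.99 with shTOX-1 and 6.26 with shTOX-2. On the high side the clearest were PON1, a lipid-bound esterase, at 7.36, 6.78, 7.98 and 8.54, FAM30A, a noncoding gene of progenitor cells, at 5.23, 5.86, 6.40 and 7.05, and the pseudogene RNF126P1 at 5.69, 5.75, 6.31 and 6.88. GBP5, GDF10, HMGCS1 and MVK had the opposite order, with shTOX-1 farther out.

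The same genes were then read in HPB-ALL. There, both hairpins lay above both controls for 2190 genes (24.5%) and below for 1454 (16.3%). Of the 58 genes on the high side in CCRF-CEM, 12 lay above in HPB-ALL and 0 below, and 10 were below the filter level there; the 12 are no larger a share than the 24.5% of all genes. Of the 104 on the low side, 37 lay below in HPB-ALL, where 16.3% of all genes did, 6 above, and 10 were below the level. In limma the difference between the lines passed for 0 of 8930 genes (0%), with 410 at an unadjusted p under 0.05 and a smallest adjusted p of 0.811. Without the CCRF-CEM scramble array 8 genes passed.

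CCR8 had nearly the same fitted difference in both lines, -2.23 ± 0.69 in CCRF-CEM and -2.08 in HPB-ALL, where it read 8.03 untransduced, 6.84 with scramble, 6.15 with shTOX-1 and 4.56 with shTOX-2. Both CCRF-CEM hairpin values and the HPB-ALL value with shTOX-2 lay below the filter level. Background thus limits both sizes, and equal sizes cannot be read from them. MIR32 read 6.06 and 6.12 in the HPB-ALL controls and 5.49 and 5.39 with the hairpins, and ZNF704 5.76 and 5.56 against 5.20 and 5.07. CREB3L3 read 7.08 in untransduced HPB-ALL cells, 8.54 with scramble, 8.79 with shTOX-1 and 8.88 with shTOX-2, so most of its distance was already there with scramble. HMGCS1 was alike: 6.83 untransduced, 9.08 with scramble, 8.89 and 8.93 with the hairpins, and MVK read 6.36, 7.65, 7.70 and 7.56. In HPB-ALL both hairpins thus read below scramble for HMGCS1 and on either side of it for MVK, while in CCRF-CEM HMGCS1 lay above scramble by 0.86 to 1.13. The difference between the lines was not called for HMGCS1 (0.56, adjusted p = 0.996) or MVK (0.68, adjusted p = 0.973).

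The CD1 comparison could not be made in HPB-ALL for most members: CD1A, CD1B, CD1C and CD1E read 3.45 to 4.82 on its 4 arrays, below the filter level, and CD1D read 5.37 to 5.78. GPC3, GBP5 and ANGPT1, at 3.77 to 4.89, and HPGD, at 4.38 to 4.63, were below the level there as well.

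**Figure D5:**
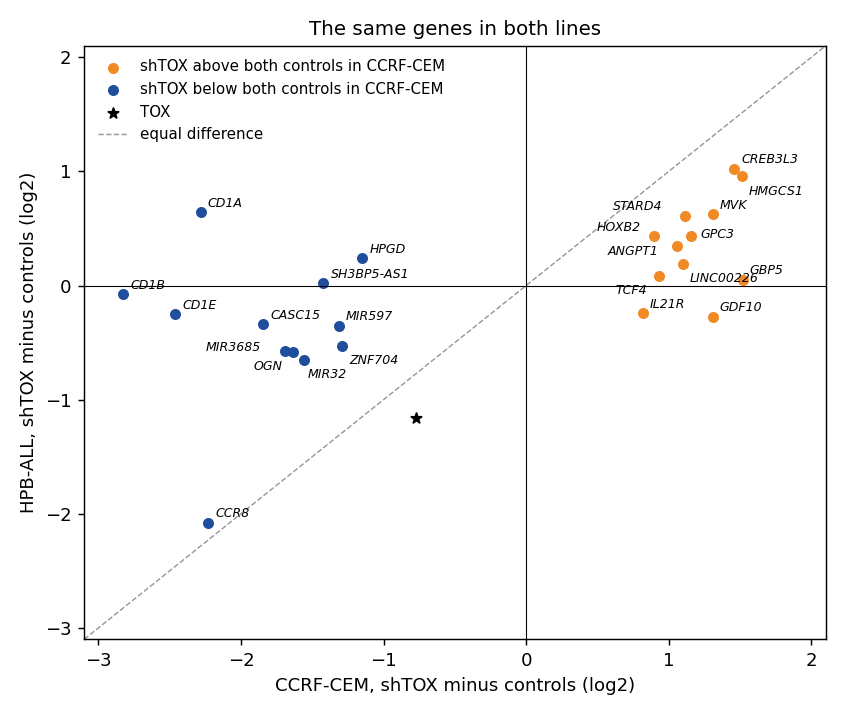
Fitted log2 difference of shTOX minus controls in CCRF-CEM (horizontal axis) and HPB-ALL (vertical axis) for the 24 genes with the widest gaps in CCRF-CEM, with TOX as a star; the dashed line marks equal differences. CCR8 lies next to the line at -2.23 and -2.08, sizes that background limits in both lines. CD1B and CD1E, which HPB-ALL hardly expresses, lie near 0 on the vertical axis.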

How the data were processed

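Per the values themselves, the authors deposited log2 intensities, with 1 number for every probe set on every array. How they corrected background and normalized, with which software and on which genome build, is not stated in the labels or headers. Each of the 8 arrays held 53617 probe sets, and the array medians ran from 4.62 to 4.71. Of these, 16098 probe sets carried 1 gene symbol in the platform annotation and 37519 none. Where a gene had several probe sets (779 genes) its brightest on average stood for it, and genes at or above the 40th percentile of it (log2 5.18) were tested.

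limma 3.58.1 (R 4.3.3; lmFit, then contrasts.fit and eBayes) gave the differences from all 8 arrays, 1 mean per line and state, with Benjamini-Hochberg adjustment over 8930 genes and a threshold of 0.05; scripts were tested on simulated data. Counts of genes apart, shared with scramble or graded carry no test. Their distances were 0.5 and 0.25 (log2). Genes were named by rule: the TOX family; the 12 widest gaps per side; 6 shared with scramble and 4 graded per side; 4 per direction between lines; and members of 32 gene lists with the hairpins beyond both controls. Genes that stood out in single arrays, and those that passed for scramble against untransduced, were also named after their values were seen. The members and lists were chosen with earlier results of these data known. Alternatives were quantile normalization, other filters and probe set rules, a moderated fit with trend, CCRF-CEM alone, a replicate block, and leaving out each array. The number of arrays limits the precision.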

Additional observations from a re-analysis of the deposited data

Results flagged for a closer look

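Of the genes named by rule, 3 had both hairpins on opposite sides of both controls in the 2 lines, by at least 0.25 in each. The difference between lines (CCRF-CEM minus HPB-ALL) was 1.20 for GP5, a platelet glycoprotein, -1.12 for the antisense transcript ENO1-AS1 and -2.53 for the miRNA gene MIRLET7F1. In CCRF-CEM, GP5 read 5.82 untransduced, 5.91 with scramble, 6.79 with shTOX-1 and 6.39 with shTOX-2, whereas HPB-ALL had 5.73, 5.62, 5.27 and 5.12. ENO1-AS1 stood at 5.90, 5.92, 5.28 and 5.18 in CCRF-CEM, whereas HPB-ALL had 6.08, 6.16, 6.45 and 6.67. MIRLET7F1 stood at 6.32, 5.03, 3.94 and 4.76, whereas HPB-ALL had 5.25, 4.91, 6.42 and 6.16. In limma each had an adjusted p of 0.973 for the difference between lines.

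The probe sets without a gene name, which no comparison above uses, held a 1-sided signal. The mean over the whole series, HPB-ALL included, reached the filter level in 13010 of them. Within CCRF-CEM, 49 of these (0.377%) had both hairpins at least 0.5 above both controls and 852 (6.55%) had them at least 0.5 below. The median over the 13010 was 7.15 untransduced, 7.16 with scramble, 6.89 with shTOX-1 and 6.98 with shTOX-2. Which transcripts they measure is not known here, and the part of array processing in this signal was not tested.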

How the results depend on the processing

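For shTOX against the controls, leaving out 1 array gave 0 to 65 genes, the highest without scramble, and the replicate block gave 0 (smallest adjusted p 0.0655, 1592 genes at an unadjusted p under 0.05). For TOX the block gave an adjusted p of 0.146. The numbers name the hairpins: deviations from the group means correlated across genes at 0.225 between same-numbered hairpins of the lines and at 0.371 for the controls. Against scramble, 3 genes passed with no filter, 2 with the filter on CCRF-CEM alone, and 0 to 32 with 1 array left out. For scramble against untransduced, 74 genes passed with a trend in the prior variance, and 27 to 156 with 1 array left out. The difference between lines gave 0 to 8. Quantile normalization gave 99 higher and 66 lower genes apart by 0.5, and 45 and 29 graded genes; leaving out 1 array, a choice made after seeing the data, gave 131 to 638 and 179 to 762 genes apart.

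Alternatives were run gene by gene only for the genes named by rule, and among these the sign of the shTOX minus control difference turned for 11. With quantile normalization DCLRE1C was at 0.068 and MUTYH at 0.015. With 1 array left out, the lowest and highest values were -0.32 and 0.42 for EOMES, -0.59 and 0.32 for LAG3, -0.50 and 0.28 for XRCC4, -0.12 and 0.54 for TDP1, -0.13 and 0.044 for DCLRE1C, -0.28 and 0.54 for HMGB2, -0.86 and 0.17 for RAG1, -0.55 and 0.12 for NKG7, -0.16 and 0.83 for NCR3, and -0.12 and 0.23 for NCR1. The causes were not tested.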
